A study of Mus musculus with 12 samples.

Results

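The integrated stress response was followed at the RNA level in mouse retina through 10 of its genes: *Atf4*, *Atf5*, *Ddit3*, *Trib3*, *Chac1*, *Asns*, *Ddit4*, *Ppp1r15a*, *Sesn2* and *Cebpb*. They were chosen by name, by an exact match to the gene name column of the expression table, and are 10 of 55487 genes listed there. Earlier results of these data were known at the choice, so their counts and medians beside those of all genes are descriptions only. All 10 had a mean above 1 FPKM (mapped fragments scaled for transcript length and for the size of the library) in at least 1 group and so entered the tests, which ran over 16471 genes. Eyes of mice, 2 months old by a figure legend of the paper, were injected with PBS or with 40 mM NMDA (1 μL, a dose of 40 nmol). Retinas were taken a day after the injection. NMDA is an agonist of a glutamate receptor class whose overactivation kills inner retinal neurons. Each agent was given to 3 kinds of mice: WT (C57BL/6J, called B6J), shPax6 (mice infected with an adeno-associated virus, AAV2.7m8, that carries a short hairpin RNA against *Pax6*) and JNK3 KO (Jnk3-/-, a germline knockout of the neuronal stress kinase encoded by *Mapk10*). This gave 6 groups of 2 libraries, each made from poly(A) RNA of more than 3 pooled retinas. None of the 12 libraries received the scrambled hairpin vector, so infection and loss of *Pax6* cannot be told apart in the shPax6 groups.

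The integrated stress response begins when a kinase that senses unfolded protein in the endoplasmic reticulum, missing amino acids, double-stranded RNA or mitochondrial damage phosphorylates the translation initiation factor eIF2. General protein synthesis then falls, while a few mRNAs with upstream open reading frames, among them those of *Atf4*, *Atf5*, *Ddit3* and *Ppp1r15a*, are translated better. ATF4 and its partners switch on genes of amino acid supply and redox balance, and under lasting stress the same arm turns on *Ddit3*, which encodes the pro-apoptotic factor CHOP. In retinal ganglion cells (RGCs), the neurons whose axons form the optic nerve, this arm is known for its induction by axon injury and in glaucoma models. Phosphorylation of eIF2 and translation were not measured in these libraries, which report mRNA only.

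The 10 genes fall into 3 roles: the transcription factors *Atf4*, *Atf5*, *Ddit3* and *Cebpb*, the effectors *Asns*, *Chac1*, *Trib3*, *Ddit4* and *Sesn2*, and the phosphatase subunit *Ppp1r15a*. ATF4 and its relatives bind composite C/EBP-ATF response elements, and the related cAMP response element (CRE) and AP-1 site are read by other basic leucine zipper factors, AP-1 being the best known target of JNK signaling. The RefSeq promoter windows (GRCm38.p6, 250 bases before to 50 bases after each start site) of all 10 genes were searched on both strands, *Atf5* having 2 windows. The C/EBP-ATF response element, searched as TGATGNAA, lay in 3 of the 10 genes (*Chac1*, *Asns* and *Trib3*) and in 3.97% of the 32851 promoter windows. The CRE, searched as TGACGTCA, lay in 1 gene (*Ppp1r15a*) and in 1.79% of the windows. The AP-1 site, searched as TGANTCA, lay in 1 gene (*Ddit3*) and in 7.81% of the windows. The ER stress response element lay in 0 of the 10 genes and in 0.119% of the windows. No match overlapped another. The 5 matches are printed below because they set the genes of one response apart by sequence, each read 5′ to 3′ on the strand of its gene with the matched letters in capitals.
Chac1, chr2:119351039-119351066, plus strand, first matched base 193 bases before the start and the element on the opposite strand: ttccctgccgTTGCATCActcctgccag
Asns, chr6:7693215-7693242, minus strand, 23 bases before the start: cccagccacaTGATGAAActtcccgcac
Trib3, chr2:152344029-152344056, minus strand, 14 bases after the start and the element on the opposite strand: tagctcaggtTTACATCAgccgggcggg
Ppp1r15a, chr7:45526263-45526290, minus strand, 12 bases before the start: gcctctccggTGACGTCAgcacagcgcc
Ddit3, chr10:127290543-127290567, plus strand, 242 bases before the start: cgcgcgcaTGACTCActcacctcct
A match is a description of these letters and not a site shown to be bound. No match in the windows of *Atf4*, *Atf5*, *Cebpb*, *Ddit4* and *Sesn2* says only that these letters are not within them.

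Facts of the whole series bear on the values below. The targeted genes were checked first. *Pax6* in WT PBS measured 173 and 177 FPKM, against 94.6 and 92.8 FPKM in shPax6 PBS, a log2 difference of -0.90 (SE 0.07, adjusted p = 6.0e-05 with limma). *Mapk10* in WT PBS measured 42.8 and 50.7 FPKM, against 9.47 and 8.75 FPKM in JNK3 KO PBS, a log2 difference of -2.34 (SE 0.36, adjusted p = 0.0215). Both targeted genes were also low in WT retinas after NMDA. *Pax6* stood there at 55.4 and 53.8 FPKM, below the 67.5 and 58.7 FPKM of shPax6 NMDA, and *Mapk10* at 8.98 and 6.00 FPKM, beside 6.65 and 13.8 FPKM in JNK3 KO NMDA. The check of the labels thus rests on the PBS groups, and neither gene is lower in its modified line than in WT between the NMDA groups. The 2 WT NMDA libraries stood apart from the other 10. Their FPKM summed to 805627 and 820180 against 541210 to 576922 elsewhere, mitochondrially encoded genes took 3.02% and 2.98% of that sum against 5.91% to 10.21%, and short genes were higher. When each library was rescaled to the same sum (TPM), the median log2 difference of all genes in WT moved from -0.09 to -0.66, and the share of genes called higher and lower moved from 26.0% and 33.8% to 13.6% and 50.2%. The median of the 10 genes in WT is therefore given on both scales, beside that of all genes. Rod, RGC and Müller glia markers were detected in every group. The depth behind a value is unknown, since FPKM hold no counts, so no interval for counting error can be given. The libraries of a group are called biological replicates, but the sources used here do not tie each pool of retinas to a separate experiment, so p-values measure only the spread between these libraries.

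NMDA raised most of the 10 genes in WT retinas: 8 rose, 0 fell and 2 did not pass the test, beside 26.0% of all tested genes called higher and 33.8% called lower. A call needed an adjusted p under 0.05 from limma on log2(FPKM + 0.1), with Benjamini-Hochberg adjustment over all 16471 genes, and log2 differences on this scale understate the change of low genes. The median log2 difference of the 10 genes was 1.02, beside -0.09 over all genes, and under TPM scaling 0.46 beside -0.66. Under TPM 5 of the 10 genes were called higher (*Atf4*, *Ddit3*, *Asns*, *Ppp1r15a* and *Cebpb*) and 2 lower (*Ddit4* and *Sesn2*), beside the 13.6% and 50.2% of all genes given above. *Ddit3* (CHOP) and *Ppp1r15a* (GADD34, the subunit that directs a phosphatase to eIF2 and ends the response) rose most, and *Ddit4* and *Sesn2*, both inhibitors of the growth kinase complex mTORC1, gave no call.

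**Figure D1:**
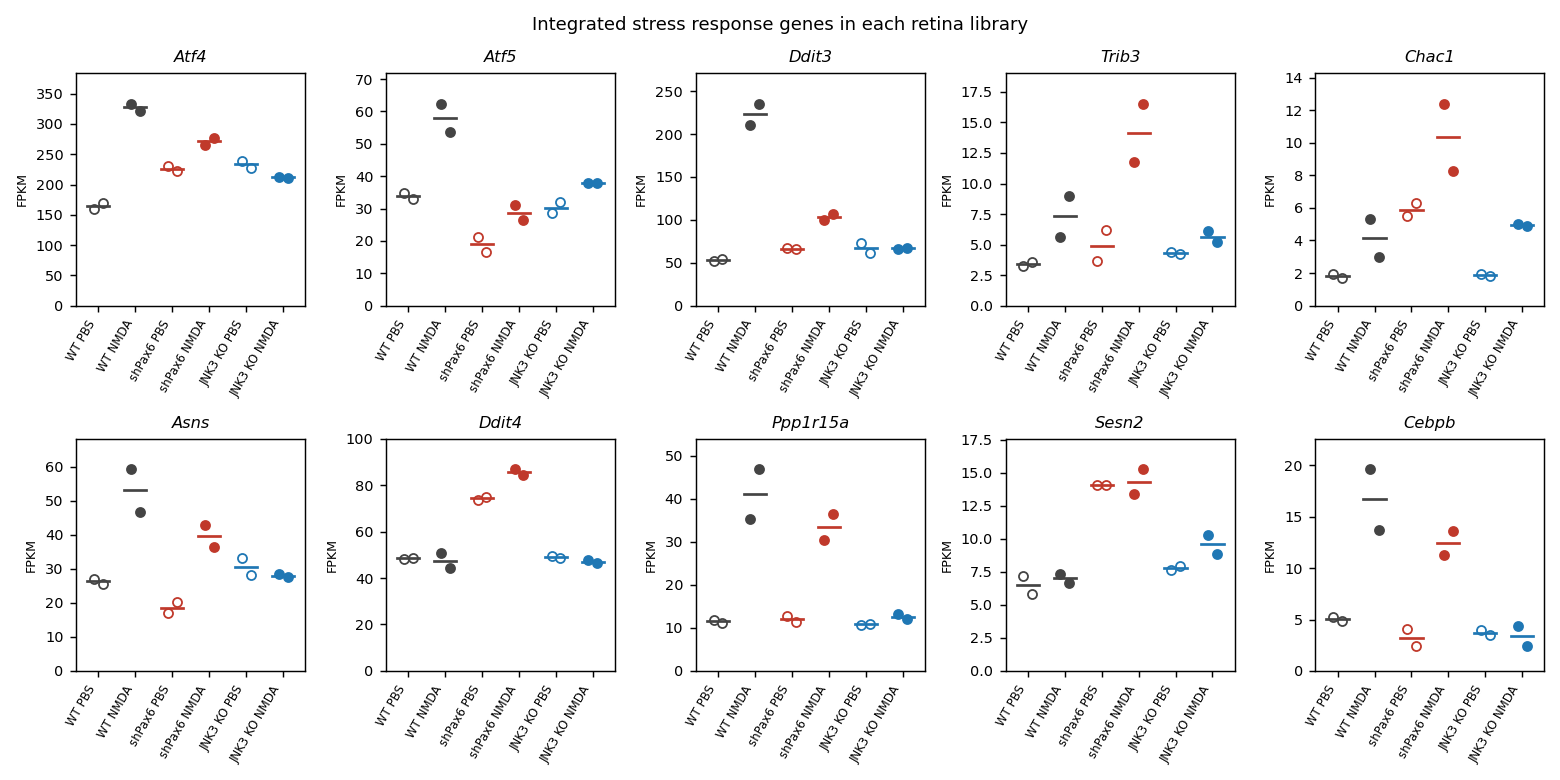
FPKM of the 10 genes in each of the 12 libraries, with 1 panel per gene, open circles for PBS, filled circles for NMDA, horizontal bars for the mean of 2 libraries and a linear axis from 0. The WT NMDA libraries are above all others for *Ddit3* (210.5 and 236 FPKM), whereas *Ddit4* and *Sesn2* are higher in all 4 shPax6 libraries than in all 8 others.

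Among the transcription factors, *Atf4*, the central activator of the response, measured 159 and 170.3 FPKM in WT PBS but 334 and 322 FPKM in WT NMDA. Both NMDA libraries were above both PBS libraries, and the log2 difference was 0.99 (SE 0.05, adjusted p = 4.6e-07). *Atf4* was the most abundant of the 10 genes in every group, and quantile normalization, which forces the libraries to 1 distribution, lowered its difference to 0.18 without ending the call. *Ddit3* measured 51.9 and 54.6 FPKM in WT PBS but 210.5 and 236 FPKM in WT NMDA, a 4.17-fold rise (log2 difference 2.06, SE 0.09, adjusted p = 1.5e-07). Only 3.53% of tested genes had a larger log2 difference in WT. *Cebpb*, which encodes a C/EBP factor that pairs with ATF4, measured 5.20 and 4.87 FPKM in WT PBS but 19.7 and 13.7 FPKM in WT NMDA (log2 difference 1.69, SE 0.32, adjusted p = 0.00152). *Atf5*, which encodes an ATF4 relative tied to mitochondrial stress, rose the least of the 4 factors, from 34.9 and 33.0 FPKM to 62.5 and 53.7 FPKM (log2 difference 0.77, SE 0.14, adjusted p = 0.000883). Its call was lost under TPM (log2 difference 0.20).

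Among the effectors, *Asns*, the enzyme that makes asparagine, measured 27.0 and 25.6 FPKM in WT PBS but 59.4 and 46.8 FPKM in WT NMDA (log2 difference 1.00, SE 0.14, adjusted p = 0.000234). The transcript table divided this rise unevenly. The full-length coding transcript Asns-201 (2001 bases) went from 24.1 and 25.6 up to 40.2 and 36.4 FPKM, a log2 difference of 0.62 that also passed the test, and the short processed transcript Asns-206 (448 bases) went from 1.55 and 0 to 19.2 and 10.4 FPKM. *Trib3*, which encodes a pseudokinase that restrains ATF4 and AKT, measured 3.24 and 3.58 FPKM in WT PBS but 5.65 and 8.98 FPKM in WT NMDA (log2 difference 1.04, SE 0.29, adjusted p = 0.0127). *Chac1*, which encodes an enzyme that degrades glutathione, measured 1.97 and 1.68 FPKM in WT PBS but 5.31 and 3.00 FPKM in WT NMDA (log2 difference 1.09, SE 0.28, adjusted p = 0.00847). In both genes the groups did not overlap, but the 2 NMDA libraries lay far apart, and each call rested on single libraries. Without WT NMDA replicate 2 the difference of *Trib3* was 0.71 (adjusted p = 0.106), and without WT NMDA replicate 1 that of *Chac1* was 0.69 (adjusted p = 0.0638). The call of *Trib3* was also lost without WT PBS replicate 1 (adjusted p = 0.0731), that of *Chac1* without WT PBS replicate 2 (adjusted p = 0.0557), and both were lost under TPM (log2 differences 0.48 and 0.55). *Chac1* was also not called after a correction for length (log2 difference 0.70).

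*Ppp1r15a* measured 11.9 and 11.2 FPKM in WT PBS but 35.3 and 46.9 FPKM in WT NMDA, a 3.51-fold rise (log2 difference 1.81, SE 0.15, adjusted p = 6.2e-06). Much of this gene-level rise was assigned to a short annotated transcript. Ppp1r15a-203 (389 bases) went from 1.62 and 2.33 FPKM to 17.1 and 29.2 FPKM, while the full-length Ppp1r15a-201 (2333 bases) went from 9.98 and 8.58 FPKM to 18.2 and 17.7 FPKM. The share of Ppp1r15a-201 in the gene fell from 83.9% and 76.8% to 51.6% and 37.8%, and its own log2 difference was 0.95, still past the test. FPKM are per length, so a 389-base transcript reaches a given FPKM with fewer fragments than a 2333-base one.

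**Figure D2:**
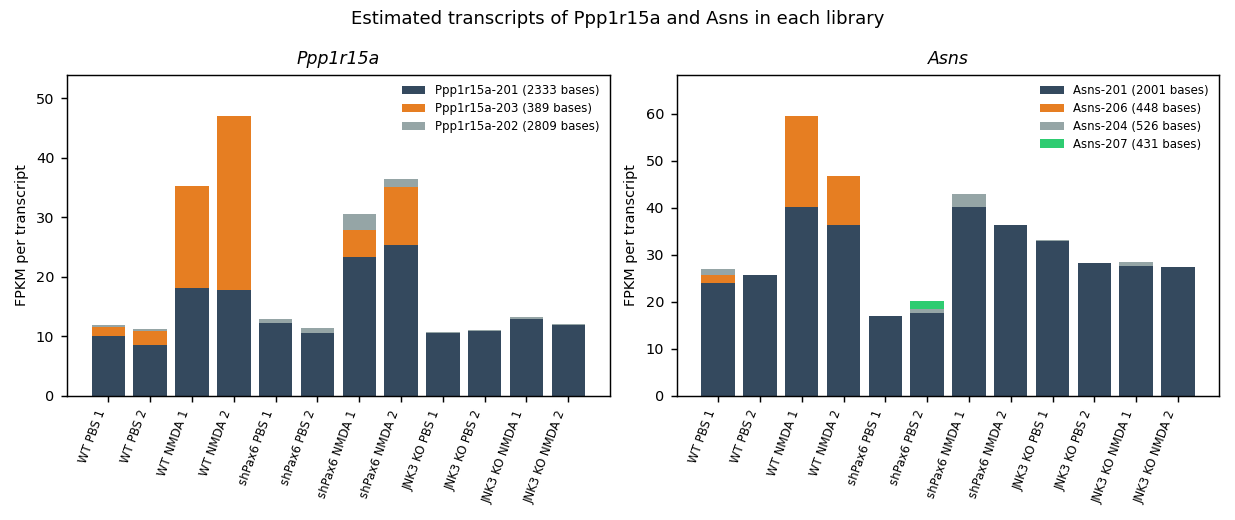
Stacked FPKM of the annotated transcripts of *Ppp1r15a* and *Asns* in each of the 12 libraries, from a linear axis at 0, with the length of each transcript in the legend. The short transcripts Ppp1r15a-203 and Asns-206 have a larger part in each of the 2 WT NMDA libraries than in any other library. They reach 29.2 and 19.2 FPKM there, while Asns-201 remains the larger part of *Asns*. Ppp1r15a-203 is listed at 0 in all 4 JNK3 KO libraries.

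The 2 genes without a call in WT were *Ddit4*, at 48.2 and 48.7 FPKM with PBS and 50.6 and 44.4 FPKM with NMDA, and *Sesn2*, at 7.20 and 5.83 FPKM with PBS and 7.37 and 6.63 FPKM with NMDA. Their log2 differences were -0.03 (95% interval -0.19 to 0.12) and 0.11 (95% interval -0.21 to 0.43). Both depended on the scaling. *Ddit4* was called lower under TPM (-0.61), quantile normalization (-0.34) and length correction (-0.34), and *Sesn2* was called lower under TPM (-0.46) but higher under quantile normalization (0.46) and length correction (0.71).

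The trend of all genes on spliced length (the mean length of a gene's transcripts, weighted by their FPKM) was steep in WT. The median log2 difference was 1.03 in genes under 1 kb and -1.17 in genes over 4 kb, against 0.18 and -0.07 in shPax6 and -0.11 and 0.16 in JNK3 KO. *Ddit3*, with 885 bases the shortest of the 10, lay at a length where the trend alone stood at 1.01, and after correction its difference in WT was 1.01, still past the test. The other 7 genes that rose in WT are 1504 to 1960 bases long, where the trend lay between 0.14 and 0.48. *Ddit3* also shares 68 exonic bases with *Mars1* on the opposite strand, a methionyl-tRNA synthetase gene that rose in WT by 1.85 on the log2 scale (SE 0.12), and the library protocol does not state strand, so reads from the shared bases cannot be told apart. *Cebpb* shares 312 bases with *Tmem189*, *Atf5* 82 bases with *Nup62* and with *Il4i1*, and *Ppp1r15a* 12 bases with *Tulp2*.

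**Figure D3:**
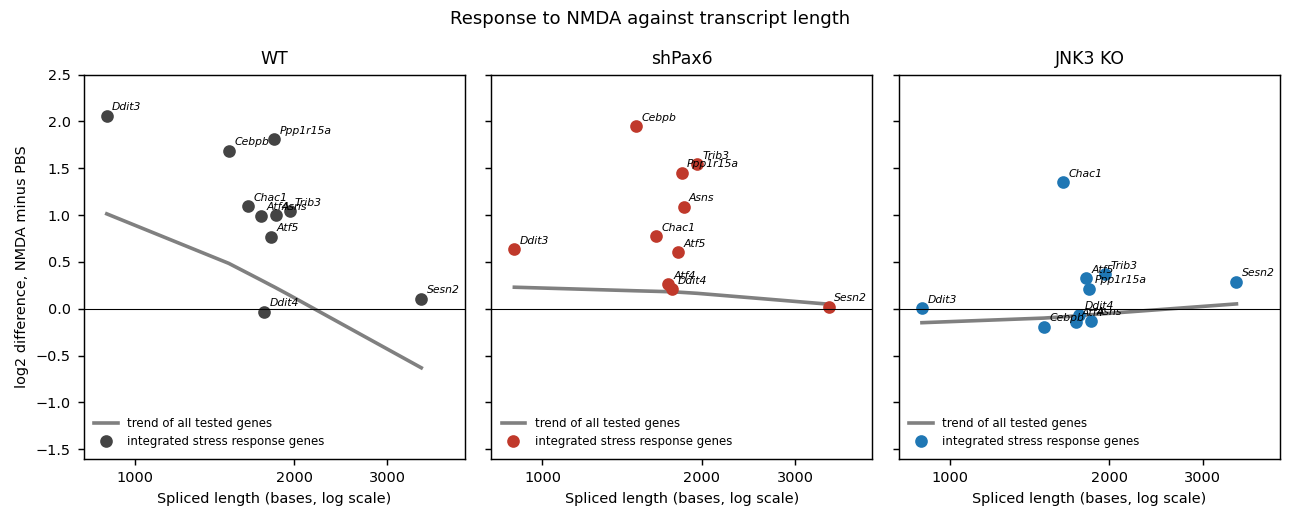
Log2 difference between NMDA and PBS against spliced length in bases (log axis) for the 10 genes in WT, shPax6 and JNK3 KO, with a gray line for the trend of all tested genes read at the lengths of the 10 genes. The line falls steeply in WT, from 1.01 at the length of *Ddit3* to -0.63 at that of *Sesn2*, and is close to flat in shPax6 and JNK3 KO.

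In shPax6 retinas NMDA raised 8 of the 10 genes, with 0 lower and 2 without a call, beside 19.1% of all tested genes called higher and 11.0% called lower. The median of the 10 was 0.70, beside 0.10 over all genes. *Cebpb*, *Trib3*, *Ppp1r15a* and *Asns* rose most. *Cebpb* went from 4.07 and 2.42 FPKM to 11.3 and 13.6 FPKM (log2 difference 1.95, SE 0.32, adjusted p = 0.00194). *Trib3* went from 3.63 and 6.16 FPKM to 11.8 and 16.6 FPKM, its highest level in any group (log2 difference 1.54, SE 0.29, adjusted p = 0.00415). *Ppp1r15a* went from 12.8 and 11.4 FPKM to 30.5 and 36.4 FPKM (log2 difference 1.45, SE 0.15, adjusted p = 0.000113). Here the full-length Ppp1r15a-201 carried most of the rise, from 12.3 and 10.5 FPKM to 23.4 and 25.4 FPKM, and Ppp1r15a-203 was listed at 0 in both PBS libraries but at 4.53 and 9.74 FPKM after NMDA. *Asns* went from 16.9 and 20.2 FPKM to 42.9 and 36.3 FPKM (log2 difference 1.09, SE 0.14, adjusted p = 0.000513), nearly all of it as Asns-201.

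*Atf4* and *Ddit3* moved less here than in WT, by the interaction test given below. *Atf4* went from 231 and 222 FPKM to 266 and 277 FPKM, a 1.20-fold rise (log2 difference 0.26, SE 0.05, adjusted p = 0.00496), whose call was lost under 75th percentile scaling (0.14) and after length correction (0.06). *Ddit3* went from 67.2 and 65.9 FPKM to 100.2 and 107 FPKM, a 1.55-fold rise (log2 difference 0.64, SE 0.09, adjusted p = 0.000704). *Atf5* went from 21.4 and 16.5 FPKM to 30.9 and 26.4 FPKM (log2 difference 0.60, SE 0.14, adjusted p = 0.0091), a call lost without shPax6 PBS replicate 2 (adjusted p = 0.0507) or shPax6 NMDA replicate 1 (adjusted p = 0.0689). *Ddit4* went from 73.7 and 75.02 up to 87.0 and 84.5 FPKM, a log2 difference of 0.21 (SE 0.07) that only just passed (adjusted p = 0.0490). That call was lost in 11 of 12 alternative settings and in 10 of the 12 fits with a library left out. *Chac1* went from 5.50 and 6.28 FPKM to 12.4 and 8.24 FPKM, the highest levels of this gene in the series, without passing the test (log2 difference 0.77, 95% interval 0.13 to 1.42, adjusted p = 0.0706). *Sesn2* measured 14.1 and 14.1 FPKM with PBS, then 13.4 and 15.3 FPKM with NMDA (log2 difference 0.02, 95% interval -0.30 to 0.34).

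In JNK3 KO retinas 1 of the 10 genes rose, 0 fell and 9 did not pass the test, beside 4.33% of all tested genes called higher and 6.10% called lower. The median of the 10 was 0.11, beside -0.01 over all genes. The gene that rose was *Chac1*, from 1.97 and 1.79 FPKM to 4.99 and 4.91 FPKM (log2 difference 1.35, SE 0.28, adjusted p = 0.0184). Only 1.81% of tested genes had a larger difference in JNK3 KO. The call was lost when any of the 4 JNK3 KO libraries was left out, with log2 differences of 1.29 to 1.42 and adjusted p of 0.0911 to 0.116. *Ddit3* measured 72.4 and 60.9 FPKM with PBS, then 66.6 and 66.7 FPKM with NMDA, a log2 difference of 0.00 with a 95% interval from -0.19 to 0.20. *Atf4* measured 239 and 227 FPKM with PBS, then 213 and 210.9 FPKM with NMDA. Both *Atf4* values with NMDA were below both with PBS, but the log2 difference of -0.14 did not pass (95% interval -0.25 to -0.02, adjusted p = 0.136).

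The remaining genes gave no call in JNK3 KO. *Ppp1r15a* measured 10.7 and 11.0 FPKM with PBS, then 13.2 and 12.1 FPKM with NMDA (log2 difference 0.21, 95% interval -0.12 to 0.54), with Ppp1r15a-201 making up at least 98.2% of the gene in all 4 libraries. *Cebpb* measured 3.97 and 3.50 FPKM with PBS, then 4.39 and 2.40 FPKM with NMDA (log2 difference -0.19, 95% interval -0.92 to 0.54). *Asns* measured 33.1 and 28.3 FPKM with PBS, then 28.4 and 27.5 FPKM with NMDA (log2 difference -0.13, 95% interval -0.45 to 0.19). *Asns* and *Cebpb* overlapped between the 2 groups, and *Ppp1r15a* did not. *Atf5* (28.6 and 31.9 FPKM, then 37.8 and 38.0 FPKM), *Trib3* (4.41 and 4.26 FPKM, then 6.10 and 5.19 FPKM) and *Sesn2* (7.65 and 7.95 FPKM, then 10.3 and 8.87 FPKM) had both NMDA values above both PBS values without passing the test, with log2 differences of 0.33, 0.37 and 0.29. *Ddit4* measured 49.5 and 48.8 FPKM with PBS, then 47.8 and 46.3 FPKM with NMDA (log2 difference -0.06), both NMDA values lying below both PBS values. With 2 libraries a group such a separation often arises by chance, so by itself it is no sign of a change.

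**Figure D4:**
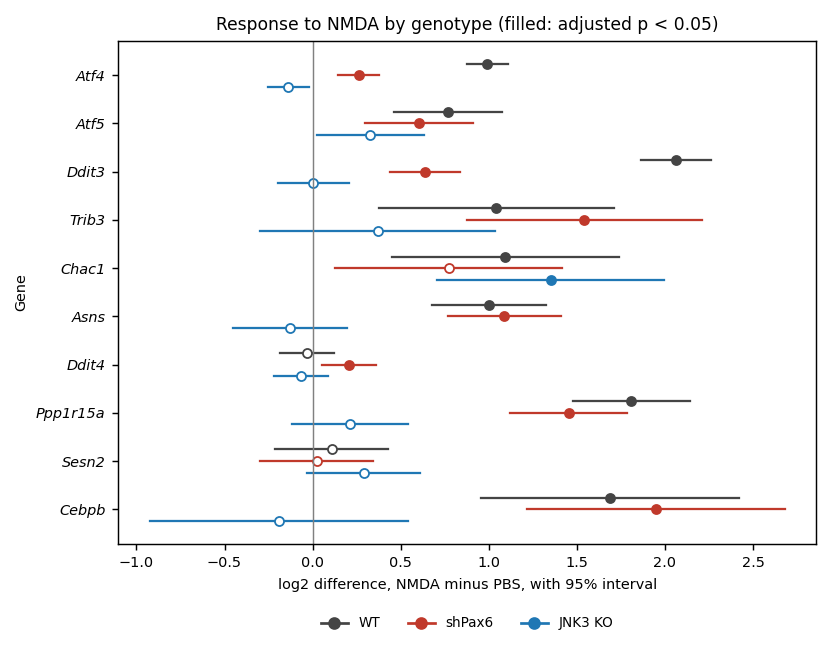
Log2 difference between NMDA and PBS for the 10 genes in WT, shPax6 and JNK3 KO retinas, with 95% intervals as lines and filled circles where the adjusted p was under 0.05. Of the 10 genes 8 are filled in WT, 8 in shPax6 and 1 in JNK3 KO, and for *Ddit3* the 3 intervals do not overlap.

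The difference between genotypes was tested directly as an interaction. Between WT and JNK3 KO, 5 of the 10 genes responded more in WT and 0 less, beside 23.5% of tested genes called higher in this contrast and 27.9% called lower. The differences of response were 2.06 for *Ddit3* (SE 0.12, adjusted p = 2.2e-06), 1.88 for *Cebpb* (SE 0.46, adjusted p = 0.00727), 1.60 for *Ppp1r15a* (SE 0.21, adjusted p = 0.000188), 1.13 for *Atf4* (SE 0.07, adjusted p = 3.2e-06) and 1.13 for *Asns* (SE 0.20, adjusted p = 0.00127). The call of *Cebpb* was lost after length correction (1.27, adjusted p = 0.0559) and that of *Asns* under TPM (0.54, adjusted p = 0.0523). *Ddit3*, *Ppp1r15a* and *Atf4* kept theirs in all 12 settings and with each library left out, but the size of the difference did not hold. It came down to 0.86 for *Ddit3* after length correction, to 0.73 for *Ppp1r15a* with the leading transcript and to 0.22 for *Atf4* under quantile normalization. Under TPM 4 genes responded more in WT and 2 less, namely *Sesn2* (-0.77, adjusted p = 0.0124) and *Ddit4* (-0.56), beside 12.8% and 42.3% of all genes. *Ddit4* was also called lower under quantile normalization (-0.32) and length correction (-0.35). *Chac1*, called in both genotypes, had a difference of -0.26 with a wide interval (-1.17 to 0.65).

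Between WT and shPax6, 2 of the 10 genes responded more in WT and 0 less, beside 18.3% of tested genes called higher in this contrast and 31.4% called lower. They were *Ddit3* (difference of response 1.43, SE 0.12, adjusted p = 2.8e-05) and *Atf4* (0.73, SE 0.07, adjusted p = 5.8e-05). The call of *Atf4* was lost under quantile normalization (0.04), and that of *Ddit3* held in all 12 settings, with a lowest value of 0.63. Other scalings added calls in both directions. *Ddit4* responded less in WT under TPM (-0.76), quantile normalization (-0.40) and length correction (-0.35), *Asns* less under TPM (-0.61) and with the leading transcript (-0.52), and *Sesn2* more under quantile normalization (0.59) and length correction (0.77). Under TPM this made 2 genes higher and 2 lower, beside 9.20% and 47.2% of all genes. On the main scale the other 8 genes gave no call, which does not show that they respond alike: the intervals ran from -0.54 to 0.37 for *Asns*, from -0.11 to 0.82 for *Ppp1r15a*, from -1.30 to 0.77 for *Cebpb* and from -1.44 to 0.45 for *Trib3*. Both contrasts use the same WT libraries, including the 2 WT NMDA libraries that stood apart, and so are not independent of each other.

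Without NMDA, the shPax6 retinas already differed from WT at 7 of the 10 genes, 5 higher and 2 lower, beside 5.36% of tested genes called higher and 11.2% called lower. *Chac1* (5.50 and 6.28 FPKM against 1.97 and 1.68 FPKM in WT) was 3.11-fold higher, with a log2 difference of 1.64 (SE 0.28, adjusted p = 0.00483). *Sesn2* (14.1 and 14.1 FPKM against 7.20 and 5.83 FPKM) was higher by 1.11 on the log2 scale (SE 0.14, adjusted p = 0.000985), and *Ddit4* (73.7 and 75.02 FPKM against 48.2 and 48.7 FPKM) by 0.62 (SE 0.07, adjusted p = 0.000454). Both genes thus stood at their higher level before NMDA, to which their log2 differences were 0.02 and 0.21. *Atf4* was higher by 0.46 (SE 0.05, adjusted p = 0.000487) and *Ddit3* by 0.32 (SE 0.09, adjusted p = 0.0378). Against this direction *Atf5* (21.4 and 16.5 FPKM against 34.9 and 33.0 FPKM) was lower by 0.85 on the log2 scale (log2 difference -0.85, SE 0.14, adjusted p = 0.00309) and *Asns* had a log2 difference of -0.50 (SE 0.14, adjusted p = 0.0416). The calls of *Ddit3* and *Asns* were the least stable, lost in 5 and 4 of 12 settings and in 6 and 7 of 12 fits with a library left out. Markers of other cells moved with this comparison: the summed FPKM of 8 RGC markers lay at 157 to 158 in shPax6 PBS against 536 to 555 in WT PBS with 5 of the 8 called lower, that of 7 rod markers at 32844 to 35616 against 24775 to 24883 with 7 of 7 called higher, and that of 7 Müller glia markers at 1670 to 1772 against 920.2 to 957 with 3 higher and 2 lower. The higher Müller glia sum rests largely on *Apoe* (mean 948 FPKM in shPax6 PBS against 223 FPKM in WT PBS). *Vim* (208 against 353 FPKM) and *Slc1a3* (47.0 against 69.7 FPKM) had lower means. The widest gap was that of the neutrophil markers, which summed to 3.79 to 3.89 FPKM against 194 to 216 FPKM with 4 of 5 tested called lower (median log2 difference -4.11). Of 8 microglia and macrophage markers 2 were higher and 2 lower, and of 4 tested lens markers 2 were lower. Their part in the result was not tested, and in bulk retina fewer cells of a type cannot be told apart from less RNA per cell.

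The JNK3 KO retinas differed from WT under PBS at 1 of the 10 genes, beside 1.10% of tested genes called higher and 0.407% called lower. *Atf4* (239 and 227 FPKM against 159 and 170.3 FPKM in WT) was 1.41-fold higher, with a log2 difference of 0.50 (SE 0.05, adjusted p = 0.00524). The call was lost without JNK3 KO PBS replicate 1 (adjusted p = 0.0537). *Atf4* under PBS was thus higher in both modified lines than in WT, and after NMDA its FPKM were highest in WT, then shPax6, then JNK3 KO, with no overlap between these 3 groups. That order depended on the scaling. Relative to WT PBS, the log2 level of *Atf4* after NMDA was 0.99 in WT, 0.72 in shPax6 and 0.36 in JNK3 KO, but under TPM it was 0.42, 0.64 and 0.32, and under quantile normalization 0.18, 0.55 and 0.35, where WT was lowest. *Ddit3* under PBS was 72.4 and 60.9 FPKM in JNK3 KO, above the WT values without passing the test (log2 difference 0.32, adjusted p = 0.128). The other 8 genes had log2 differences between -0.42 (*Cebpb*) and 0.34 (*Trib3*).

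**Figure D5:**
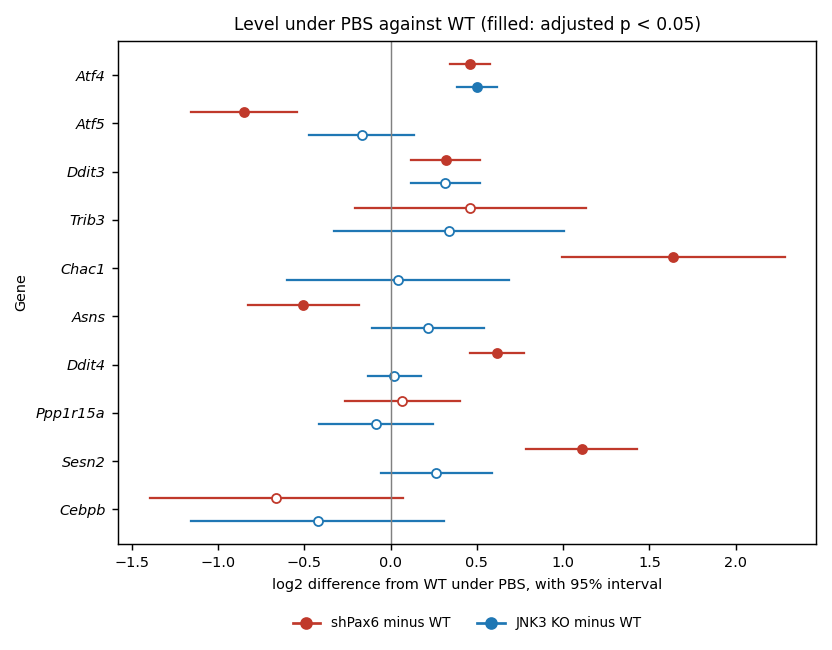
Log2 difference from WT under PBS for the 10 genes in shPax6 and JNK3 KO retinas, with 95% intervals as lines and filled circles where the adjusted p was under 0.05. In shPax6, 5 genes lie above 0 and 2 below among the filled circles, from 1.64 (*Chac1*) to -0.85 (*Atf5*), while in JNK3 KO only *Atf4* (0.50) is filled.

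The levels of cell type markers moved with NMDA as well. The 8 RGC markers summed to 536 to 555 FPKM in WT PBS and 297 to 318 FPKM in WT NMDA, to 157 to 158 and 38.3 to 46.4 FPKM in shPax6, and to 509.6 to 551 and 125 to 127 FPKM in JNK3 KO, with 7, 7 and 5 of 8 called lower. The WT sums rest largely on *Thy1* (mean 143 FPKM with PBS and 145 FPKM with NMDA) and *Sncg* (136 and 114 FPKM), and the median log2 differences of the 8 markers were -2.26 in WT, -2.61 in shPax6 and -1.97 in JNK3 KO. RGC markers thus fell in all 3 genotypes, and a link between their fall and the values of *Ddit3* was not tested. Müller glia markers summed to 920.2 to 957 and 1804 to 1815 FPKM in WT, to 1670 to 1772 and 2922 to 3152 FPKM in shPax6, and to 1038 to 1054 and 1328 to 1352 FPKM in JNK3 KO, with 3, 4 and 3 of 7 called higher and 3, 1 and 1 lower. The higher Müller glia sum in WT rests largely on *Vim* (mean 353 FPKM with PBS and 1162 FPKM with NMDA) and *Apoe* (223 and 381 FPKM). *Slc1a3* (69.7 and 25.4 FPKM) and *Aqp4* (22.3 and 3.3 FPKM) had lower means there. Of 7 rod markers 4 were higher and 2 lower in WT, 1 and 5 in shPax6, and 0 and 6 in JNK3 KO. Neutrophil markers, of which 5 of 7 were tested, summed to 194 to 216 FPKM in WT PBS and 1930 to 1971 FPKM in WT NMDA, where 4 of the 5 rose, to 3.79 to 3.89 and 59.5 to 67.5 FPKM in shPax6, where 4 rose, and to 136 to 151 and 11.3 to 12.5 FPKM in JNK3 KO, where 3 fell. The granule genes *Mpo* and *Elane* had a mean of at most 0.11 FPKM in every group. Microglia and macrophage markers summed to 132 to 144 and 231 FPKM in WT, to 111 to 117 and 535 to 537 FPKM in shPax6, and to 114 to 123 and 95.7 to 98.9 FPKM in JNK3 KO, with 4, 4 and 1 of 8 called higher and 3, 0 and 3 called lower. Lens markers, of which 4 of 5 were tested, summed to 72.5 to 73.3 FPKM in WT PBS and 150 to 154 FPKM in WT NMDA. The sums were 48.1 to 54.1 and 78.0 to 84.25 FPKM in shPax6, and 80.3 to 89.9 and 130 to 132 FPKM in JNK3 KO. Of the 4 tested, 3, 2 and 2 were called higher and 0, 2 and 0 lower. The part of all these cells in the values of the 10 genes was not tested.

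Upstream of the 10 genes, the list of eIF2 kinases, phosphatase subunits, eIF2 and its exchange factor eIF2B held 15 genes, all tested. In WT 7 rose and 4 fell with NMDA, in shPax6 6 rose and 0 fell, and in JNK3 KO 2 rose and 0 fell, with median log2 differences of 0.12, 0.19 and 0.20. Beside these and the lists below stand the shares of all tested genes: 26.0% higher and 33.8% lower in WT, 19.1% and 11.0% in shPax6, and 4.33% and 6.10% in JNK3 KO. In WT the 4 of 15 that fell lie near the share of all genes. Values of named list genes, here and below, are not corrected for length. In WT the median log2 difference was 1.03 in genes under 1 kb and -1.17 in genes over 4 kb. *Eif2b5*, the catalytic subunit of eIF2B, had the largest rise in WT (24.2 and 26.2 to 78.5 and 75.3 FPKM, log2 difference 1.61), and *Eif2ak4* (GCN2, the sensor of missing amino acids) the largest fall (7.76 and 7.32 to 4.14 and 4.05 FPKM, log2 difference -0.86). In shPax6 the largest rise was that of *Eif2ak3* (PERK, the sensor in the endoplasmic reticulum), from 11.9 and 13.9 to 21.9 and 26.2 FPKM (log2 difference 0.89), a gene that fell in WT (-0.74). In JNK3 KO it was that of *Eif2ak2* (PKR, the sensor of double-stranded RNA), from 6.39 and 7.09 to 12.1 and 10.6 FPKM (0.74).

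Of the ATF4-linked targets, 19 genes of amino acid synthesis and transport were all tested, with 8 higher and 4 lower in WT, 10 and 2 in shPax6, and 2 and 1 in JNK3 KO. *Phgdh*, the first enzyme of serine synthesis, rose in all 3 genotypes: from 7.43 and 4.04 to 25.3 and 23.3 FPKM in WT (2.13), from 8.44 and 10.6 to 21.2 and 22.6 FPKM in shPax6 (1.20), and from 7.26 and 6.12 to 21.3 and 17.9 FPKM in JNK3 KO (1.54). *Phgdh* thus rose in the JNK3 KO retinas where *Asns* did not pass. *Slc7a11*, the cystine transporter, had the largest rise in shPax6 (0.74 and 0.54 to 2.44 and 3.32 FPKM, log2 difference 2.01), and the glycine transporter *Slc6a9* the largest fall in WT (-0.80) and shPax6 (-0.36), while in JNK3 KO it was the aminotransferase *Got1* (-0.40). The 18 cytosolic aminoacyl-tRNA synthetases, which load amino acids onto tRNA and include many ATF4 targets, gave 13 higher and 2 lower in WT, 12 and 0 in shPax6, and 2 and 1 in JNK3 KO, with medians of 0.77, 0.39 and -0.01. The largest rise was that of *Mars1* in WT (1.85), of *Tars* in shPax6 (0.92) and of *Dars* in JNK3 KO (0.49), and the largest fall that of *Iars* in WT (-0.64) and *Sars* in JNK3 KO (-0.23).

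Among 18 other stress targets and basic leucine zipper partners, 17 were tested (*Fgf21* was not), with 7 higher and 5 lower in WT, 10 and 2 in shPax6, and 3 and 0 in JNK3 KO. In WT the 5 of 17 that fell again lie near the 33.8% of all genes. *Eif4ebp1*, an ATF4 target that restrains cap-dependent translation, rose in all 3 genotypes, from 4.36 and 3.89 to 40.6 and 38.4 FPKM in WT (3.23, the largest rise of the list), from 3.00 and 4.13 to 26.0 and 30.8 FPKM in shPax6 (2.97, likewise) and from 4.79 and 5.33 to 13.4 and 14.2 FPKM in JNK3 KO (1.43). The difference of this response between WT and JNK3 KO was 1.80 (SE 0.23, adjusted p = 0.000169), and that between WT and shPax6 was 0.26 and not called. *Gdf15*, a secreted stress hormone, had the largest rise in JNK3 KO, from 0.33 and 0 to 1.94 and 2.84 FPKM (log2 difference 3.56, SE 0.60, adjusted p = 0.00704), and *Rab39b* the largest fall in WT (-1.86) and shPax6 (-0.39). So *Chac1* was not the only gene of this response called higher in JNK3 KO: *Phgdh*, *Eif4ebp1* and *Gdf15* were too. *Gdf15* was low with PBS (0.33 and 0 FPKM), so the size of its log2 difference depends on the constant added to FPKM. All of these list genes were named for having the largest rise of their list in an NMDA response. Whether their calls hold in other settings or with a library left out was not tested. The call of *Chac1* was lost when any JNK3 KO library was left out.

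The sister arms of the unfolded protein response, read by ATF6 and IRE1, were taken as 20 genes, all tested. In WT 11 rose and 6 fell, in shPax6 13 rose and 0 fell, and in JNK3 KO 6 rose and 0 fell, with medians of 0.26, 0.43 and 0.23. The 6 of 20 that fell in WT lie near the 33.8% of all genes. *Sec61b*, a subunit of the protein channel of the endoplasmic reticulum, had the largest rise in WT (1.84) and *Ern1*, which encodes IRE1, the largest fall (-1.82). The largest rise was that of *Sdf2l1* in shPax6 (1.56) and that of *Dnajb9* in JNK3 KO (0.54), both encoding cofactors of the chaperone BiP, and *Dnajb9* fell in WT (-1.01). The mitochondrial stress list held 14 genes, 13 of them tested, with 9 higher and 1 lower in WT, 4 and 0 in shPax6, and 4 and 0 in JNK3 KO. The largest rises were those of the protease subunit *Clpp* in WT (1.79), the chaperonin *Hspe1* in shPax6 (0.81) and the protease *Yme1l1* in JNK3 KO (0.48), and *Yme1l1* had the largest fall in WT (-1.17). In WT, where the trend on length was steep, the counts of these lists include genes that follow the trend. Its part in these counts, in the WT values of the named list genes and in the contrasts of *Eif4ebp1* was not tested.

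Over the 12 libraries, which fall into 6 groups and share the stand-apart WT NMDA pair, the genes closest to *Atf4* in log2 FPKM were *Ptp4a3* (Pearson r = 0.97), *Trp53rka* (0.96) and *Ewsr1* (0.96), and those closest to *Ddit3* were *Rpl22*, *Tmem234* and *Acd* (each 0.99). Within the 10 genes, *Atf4* and *Ddit3* had r = 0.90. These values describe the 12 libraries and say nothing of a shared control.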

How the data were processed

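Poly(A) RNA of 12 mouse retina libraries (TruSeq mRNA kit, paired reads) was sequenced by the authors. They aligned the reads with STAR 2.7.1a to GRCm38.p6 and estimated abundances with RSEM 1.3.3, per the submitters' processing notes, which also name edgeR 3.36.0 and R 4.1.0. The authors deposited FPKM per gene and per transcript, without read counts, so the depth of a value is unknown and count tests were not possible. No columns of the authors' own comparisons were used. Differences were fitted with limma 3.58.1 (R 4.3.3) on log2(FPKM + 0.1) in a single model that gave each of the 6 groups a mean (6 residual degrees of freedom, intensity trend). Genes with a mean above 1 FPKM in at least 1 group were tested, and calls were made at a Benjamini-Hochberg adjusted p under 0.05. The calls were tested on simulated data, where changes as large as many reported here were often missed and some unchanged genes were called. So a gene without a call may still have changed. Few genes were changed in the simulation, unlike in WT with NMDA, so it does not show how calls behave in that comparison. Gene positions and lengths came from GENCODE, which matched 55227 of 55487 genes (99.53%), and promoters from RefSeq. A second row named *Ddit3* (105 bases) stood at 0 FPKM in all 12 libraries and was left out. The members and lists were chosen with earlier results of these data known. Named list genes were, per list and NMDA response, the largest rise and the largest fall that passed the test, and for *Atf4* and *Ddit3* the 3 genes of highest Pearson r. As alternatives, the pseudocount was set to 0.5 or 1, the filter was dropped or taken on the mean of 12 libraries, and the fit was repeated with TPM, 75th percentile scaling, quantile normalization, correction for spliced length (lowess span 0.3), a spread taken within the compared groups, a constant prior spread, a replicate block, the leading transcript, calls that also need an absolute log2 difference above 1, and each library left out in turn.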

Additional observations from a re-analysis of the deposited data

Results flagged for a closer look

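A total of 7 responses differed between genotypes by the interaction term in limma (adjusted p under 0.05), each larger in WT. Between WT and shPax6 these were *Atf4*, with a difference of log2 responses of 0.73, and *Ddit3*, with 1.43. Between WT and JNK3 KO these were *Atf4* with 1.13, *Ddit3* with 2.06, *Asns* with 1.13, *Ppp1r15a* with 1.60 and *Cebpb* with 1.88. Of all tested genes, 18.3% were called higher in WT minus shPax6 and 23.5% in WT minus JNK3 KO. The 2 of 10 genes between WT and shPax6 lie near that share. All 7 use the 2 WT NMDA libraries, whose sums of FPKM (805627 and 820180) lay outside the range of the other 10 (541210 to 576922). The part of that offset in these differences was not tested. TPM divides each library by its sum, so within a contrast it lowers the difference of every gene by a similar amount. Smaller values under TPM follow from that scaling and cannot decide the question. Under TPM the differences between WT and shPax6 were 0.21 for *Atf4* and 0.90 for *Ddit3*. Those between WT and JNK3 KO were 0.54 for *Atf4*, 1.46 for *Ddit3*, 0.54 for *Asns*, 1.01 for *Ppp1r15a* and 1.299 for *Cebpb*. Of these 7, that of *Asns* was no longer called.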

How the results depend on the processing

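Counts of genes called moved by more than 1.5 times in 21 of 182 alternatives. In shPax6, 8 genes passed with NMDA, against 2 with a spread from the groups compared alone and 4 when a call also needed an absolute log2 difference above 1, whether with an adjusted or an unadjusted p. In JNK3 KO the count of 1 became 0 with the leading transcript. For the difference of response between WT and shPax6 the count of 2 became 4 under TPM, 4 after length correction and 1 under either rule on size. For shPax6 against WT under PBS the count of 7 became 2 with a spread from the groups compared alone and 2 under either rule on size. For JNK3 KO against WT under PBS the count of 1 became 0 with a spread from the groups compared alone, with no intensity trend and under either rule on size. With a spread from the groups compared alone, the shares of all genes called higher and lower fell too. They went from 19.1% and 11.0% to 4.10% and 1.83% in shPax6 with NMDA. For shPax6 against WT under PBS they went from 5.36% and 11.2% to 1.74% and 3.65%. For JNK3 KO against WT under PBS they went from 1.10% and 0.407% to 0.0486% and 0.0243%. Leaving out 1 library gave 7 to 8 calls in WT, 6 to 9 in shPax6, 0 to 1 in JNK3 KO, 2 to 4 for WT minus shPax6, 5 to 6 for WT minus JNK3 KO, 5 to 7 for shPax6 under PBS and 0 to 1 for JNK3 KO under PBS. For WT minus shPax6 the 4 calls came without WT NMDA replicate 1, adding *Ddit4* (-0.33) and *Ppp1r15a* (0.56). A call of the opposite sign appeared for *Sesn2* in WT under TPM (-0.46), and for *Ddit4* in WT minus JNK3 KO under TPM (-0.56), quantile normalization (-0.32) and length correction (-0.35). Of 1680 values of single genes, 76 lost their call, 21 gained one with the same sign and 4, those just named, gained one of the opposite sign. The cause of these changes was not tested. The replicate numbers of different groups shared no deviation (correlations from -0.10 to 0.09), and with a replicate block 8 genes in WT, 7 in shPax6 and 1 in JNK3 KO passed with NMDA. The block ended the calls of *Ddit4* in shPax6 (adjusted p = 0.0539) and *Ddit3* under PBS in shPax6 (adjusted p = 0.0561). The unknown depth and the 2 libraries per group limit the precision, most of all for genes under 10 FPKM.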
